A study of Rattus norvegicus with 6 samples.

Results

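Major histocompatibility complex (MHC) class II molecules present peptides taken up from outside the cell to helper T cells. Each is an alpha chain paired with a beta chain, and in the rat, whose MHC is called RT1, the classical pairs are RT1-B and RT1-D. The invariant chain Cd74 blocks the groove of a new molecule until endosomal proteases trim it away, the peptide exchanger RT1-DM removes the last fragment, and RT1-DO restrains RT1-DM. Ciita, the class II transactivator, switches on transcription of the whole set. Macrophages, dendritic cells and B cells are the usual class II-bearing cells of bone marrow.

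All 10 genes of this set were measured here: the chains RT1-Da, RT1-Db1, RT1-Ba and RT1-Bb, Cd74, RT1-DMa, RT1-DMb, RT1-DOa, RT1-DOb and Ciita. They were taken by symbol from the 14506 genes that the array annotation names on a row of their own, and each had 1 row. The question put to them was how far the bone cells caught by 1 protein coating differ in class II expression from those caught by another. Cells were isolated from long bones of Sprague Dawley rats 2 to 5 days old and adhered to plates coated with mouse prothrombin (PT), the precursor of thrombin, or with osteopontin (OPN) from bovine milk, a phosphoprotein that is also found in bone matrix. The labels describe both coatings as retaining multinucleated cells positive for tartrate-resistant acid phosphatase, an enzyme typical of osteoclasts. There were 3 PT arrays (replicates 1, 2 and 4) and 3 OPN arrays (replicates 2, 3 and 4), all Affymetrix Rat Gene 1.0 ST. Neither coating had a control surface or unsorted cells beside it in these data. Nothing in the labels says that arrays of a group stem from separate animals or cultures. The p-values therefore reflect the spread between these arrays alone, and part or all of it may be technical.

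Array medians ranged from 207.8 to 231.4 units of linear signal. Of 29215 rows, 5.82% passed an adjusted p of 0.05 in limma's test, 1475 of them higher and 225 lower on OPN. With array medians made equal the split was 1193 higher and 551 lower, and with quantile normalisation 1360 and 745. The catches differed in cell markers. Of 16 macrophage markers 11 fell and 0 rose on OPN, while all 15 osteoblast and stromal markers and 7 of 10 osteoclast markers rose, as did 9 of 10 endothelial markers (median log2 difference 0.66). The arrays hold RNA of all attached cells, so fewer cells of a type and less RNA per cell cannot be told apart.

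Class II promoters carry a shared module in which an X box, bound by the RFX complex, is followed by a Y box, bound by NF-Y, and Ciita docks on the proteins assembled there. That module ties the chains to the 1 regulator measured with them, which is why the stretches that hold it are shown. RefSeq promoters (GRCr8, 250 bases before to 50 after the gene start) were at hand for 8 of the 10 genes, the others being Ciita and RT1-DMb. They were searched on both strands for 2 motifs. The Y box core is ATTGG. The X box core is GCAAC. The pair is an X core followed on its strand by a Y core with 20 to 36 bases between, so the cores of a pair do not overlap. Capitals mark the cores in the direction of transcription:
RT1-Da: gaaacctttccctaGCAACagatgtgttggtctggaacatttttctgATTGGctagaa
RT1-Db1: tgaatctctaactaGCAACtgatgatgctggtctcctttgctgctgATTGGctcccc
RT1-Ba: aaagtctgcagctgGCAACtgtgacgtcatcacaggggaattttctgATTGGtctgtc
RT1-DOa: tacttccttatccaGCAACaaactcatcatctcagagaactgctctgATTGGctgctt
RT1-DOb: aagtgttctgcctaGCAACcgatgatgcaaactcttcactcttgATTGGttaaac
RT1-Bb: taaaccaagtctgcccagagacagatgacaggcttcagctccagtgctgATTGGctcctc
RT1-DMa: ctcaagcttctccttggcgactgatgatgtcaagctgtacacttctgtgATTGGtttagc
Cd74: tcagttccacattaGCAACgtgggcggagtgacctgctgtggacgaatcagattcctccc

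The stretches lie at chr20:4515319-4515376 (plus strand) for RT1-Da, chr20:4560232-4560288 (minus) for RT1-Db1, chr20:4576967-4577024 (plus) for RT1-Ba and chr20:4604169-4604228 (minus) for RT1-Bb. Those of RT1-DOb, RT1-DMa and RT1-DOa are chr20:4627596-4627650, chr20:4712389-4712448 and chr20:4758520-4758577, all on the minus strand, and that of Cd74 is chr18:56527122-56527181 (plus). The pair was present in 5 of the 8 promoters, against 0.69% of 33469 promoters of the same length. The gap was 28 bases in RT1-Da, RT1-Ba and RT1-DOa, 27 in RT1-Db1 and 25 in RT1-DOb. RT1-Bb and RT1-DMa held the Y core without the exact X core letters, and Cd74 held the X core with its only Y core farther upstream on the other strand. Single cores are common: 37.5% of all promoters held a Y core and 35.1% an X core. A match of letters is a description and not evidence of binding.

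**Figure D1:**
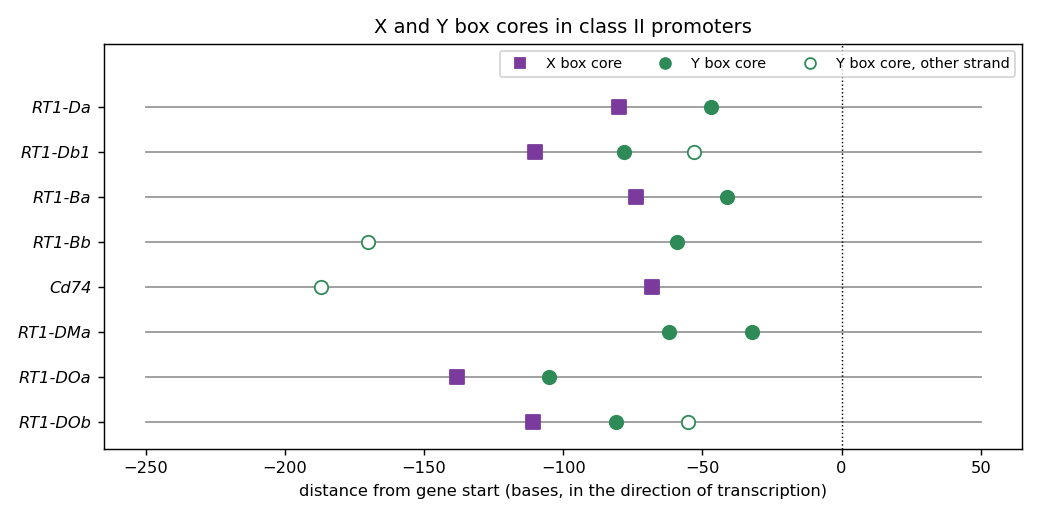
Position of X box cores (squares) and Y box cores (circles, open on the other strand) in the promoters of 8 class II genes, in bases from the gene start. In RT1-Da, RT1-Db1, RT1-Ba, RT1-DOa and RT1-DOb a square is followed by a filled circle after 25 to 28 bases.

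None of the 10 class II genes differed between the coatings past the threshold. In limma's test 0 of 10 rose, against 5.05% of all rows, and 0 fell, against 0.77% of all rows. At an unadjusted p under 0.05 the count was 1, RT1-Da, against 17.7% of all rows, and it was 0 to 2 when 1 array was left out. Differences on the log2(signal + 16) scale, OPN minus PT, ran from -0.21 (RT1-Da) to 0.08 (RT1-DOb), with 7 below 0 and 3 above. Their median was -0.05, beside 0.03 over all rows. The 95% intervals of all 10 lay between -0.41 and 0.27, so that in this fit they reached at most 1.33-fold lower or 1.21-fold higher on OPN. Other fits gave wider bounds. With equal array medians the lowest bound was -0.49 (1.40-fold). With the replicate number as a further term, the bounds reached -0.56 (RT1-Da) and 0.37 (RT1-DOa). Which rows lie above background is not known, and background in a dim row pulls its difference toward 0.

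RT1-Da encodes the alpha chain of RT1-D, the rat counterpart of human HLA-DR. Its signal was 266, 315 and 294 on PT replicates 1, 2 and 4, and 260, 258 and 228 on OPN replicates 2, 3 and 4. Every OPN array lay below every PT array, by a narrow margin between PT replicate 1 and OPN replicate 2. The means were 249 ± 17.9 on OPN against 292 ± 24.9 on PT (SD, n = 3 each), a log2 difference of -0.21 (SE 0.09, adjusted p = 0.243 in limma). RT1-Db1, which encodes the matching beta chain, had 149.5, 133 and 134 units on PT and 128, 151 and 127 on OPN. Its groups overlapped, with the highest of the 6 arrays on OPN and a log2 difference of -0.04 (SE 0.09). RT1-Db2, a second beta chain gene next to it in the GRCr8 gene order, was not named by the annotation used, and whether its transcript adds to the RT1-Db1 row was not tested.

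RT1-Ba and RT1-Bb encode the chains of RT1-B, the counterpart of human HLA-DQ. The alpha chain gene RT1-Ba had 194, 152 and 167 units on PT and 144, 142 and 151 on OPN. The groups did not overlap, but PT replicate 2 and OPN replicate 4 were almost level (152 and 151 units). Means of 146 ± 4.72 on OPN against 171 ± 21.2 on PT (SD, n = 3 each) gave a log2 difference of -0.20 (SE 0.09, adjusted p = 0.298 in limma). RT1-Bb had 258, 292 and 263 units on PT and 276, 254 and 237 on OPN. These values interleave, with a log2 difference of -0.08 (SE 0.08). In both classical pairs the arrays of the 2 coatings were separated for the alpha chain gene and overlapped for the beta chain gene. No test compared alpha with beta chains. Separation in the lower direction was seen in 2 of the 10 genes and in 7.4% of all rows, and separation in the higher direction in 0 of the 10 and in 16.3% of all rows.

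Cd74, whose product escorts all class II chains, was among the brighter rows, at the 87.1 percentile of row means. It had 607, 719 and 781 units on PT and 618, 668 and 664 on OPN. PT replicate 1 was the lowest of the 6 arrays and PT replicate 4 the highest, so the PT arrays enclosed the whole OPN range. The means of 650 ± 27.8 on OPN against 702 ± 87.8 on PT (SD, n = 3 each) differed by -0.10 on the log2 scale (SE 0.10, 95% interval -0.33 to 0.12). Over the 6 arrays the genes with the most similar log2 profile, among 8071 at or above the median row, were H2ac4 (Pearson r 0.996), Sirt7 (0.994), Gpx1 (0.990), Ska2 (0.985) and Ube2s (0.981). Having been picked for that similarity, each had its lowest or second lowest value on PT replicate 1 and its highest on PT replicate 4. The shared extremes follow from the choice and are no further finding. The correlations are given as a description, over 6 arrays and with no comparison to the neighbours of other genes.

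Neither chain of the peptide exchanger was called. RT1-DMa had 681, 688 and 632 units on PT and 618, 665 and 623 on OPN, with 1 OPN array above the lowest PT array. Its log2 difference was -0.07 (SE 0.07), and its 95% interval, -0.23 to 0.09, was the narrowest of the 10. RT1-DMb had 359, 321 and 352 units on PT and 375, 332 and 316 on OPN, with the highest and the lowest of the 6 values both on OPN. At -0.01 (SE 0.09) its difference was the closest to 0.

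RT1-DOa and RT1-DOb encode the DM inhibitor, which outside the thymus is mainly a B cell product. RT1-DOa had 219.5, 227 and 226 units on PT and 250, 197 and 241 on OPN. The PT arrays agreed closely (224 ± 3.83), whereas the OPN arrays spread on both sides of them (229 ± 28.3; SD, n = 3 each). RT1-DOb had 177, 199 and 190 units on PT and 218, 203 and 180 on OPN, and its log2 difference of 0.08 (SE 0.09) was the highest of the set. Ciita had 180, 167 and 157 units on PT and 178, 168 and 168 on OPN. Its groups overlapped, with a log2 difference of 0.03 (SE 0.07, 95% interval -0.14 to 0.19).

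**Figure D2:**
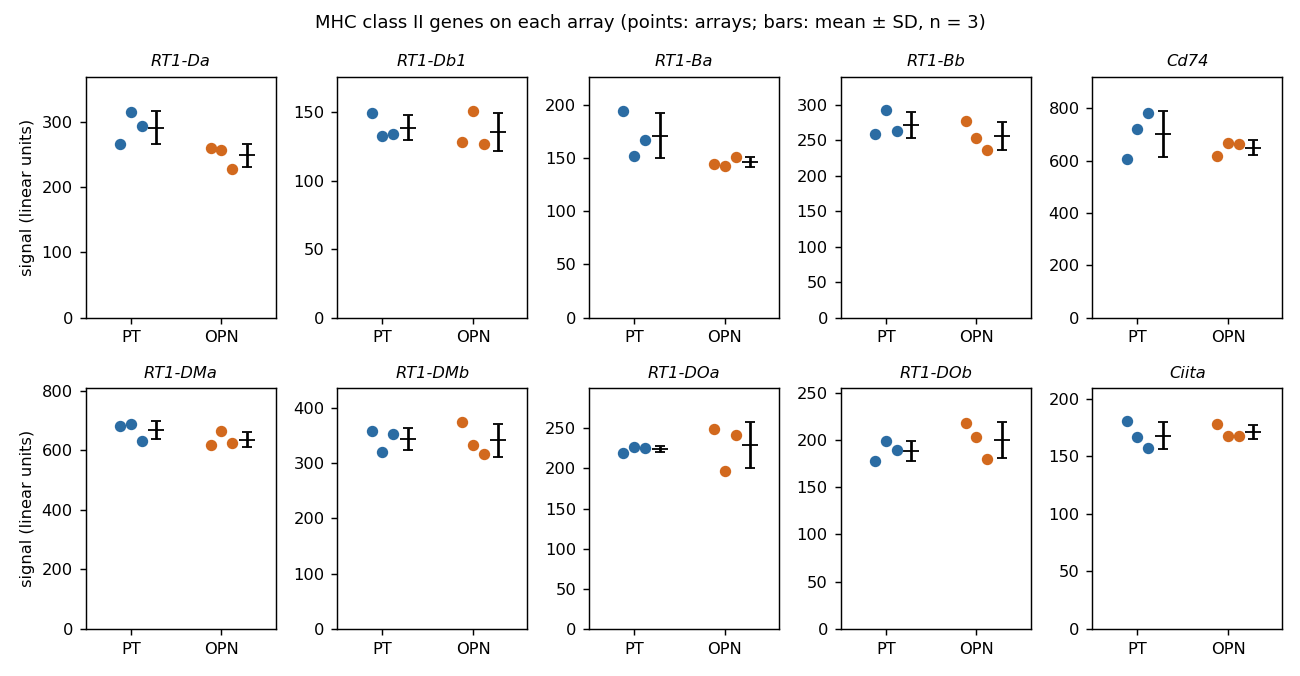
Linear signal of the 10 class II genes on each array (points; blue PT, orange OPN), with the mean and SD of 3 arrays beside them; every axis starts at 0. OPN points lie below all PT points only in RT1-Da and RT1-Ba.

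No array was high or low throughout the set. Among the OPN arrays replicate 2 was highest for 6 of the 10 genes and replicate 4 lowest for 6, and among the PT arrays replicate 2 was highest for 5 and replicate 1 lowest for 5. The median signal of all rows was also highest on OPN replicate 2 (231.4) and lowest among the OPN arrays on replicate 4 (218.4). The signal summed over the 10 genes was 2935 to 3065 on OPN and 3092 to 3211 on PT, so the sums did not overlap, with Cd74 and RT1-DMa as the brightest rows. That separation ended when any 1 of 3 genes was left out: without Cd74 the sums were 2271 to 2447 on OPN and 2414 to 2492 on PT, and they also overlapped without RT1-DMa or RT1-Ba. Array medians were 218.4 to 231.4 on OPN and 207.8 to 221.7 on PT. With these made equal, 9 of the 10 genes lay below 0, with a median of -0.12, and 0 were called (2 at an unadjusted p under 0.05). RT1-DOa and Ciita turned from above to below 0 with that scaling (-0.040 and -0.039) and with quantile normalisation (-0.038 and -0.032). Brightness differed widely between rows, with RT1-Db1 at the 26.0 percentile of row means and RT1-DMa at the 86.5, but probe sets differ in sensitivity and no order of transcript levels follows. RT1-Ba, RT1-Db1, RT1-DOb and Ciita lay below the median row.

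**Figure D3:**
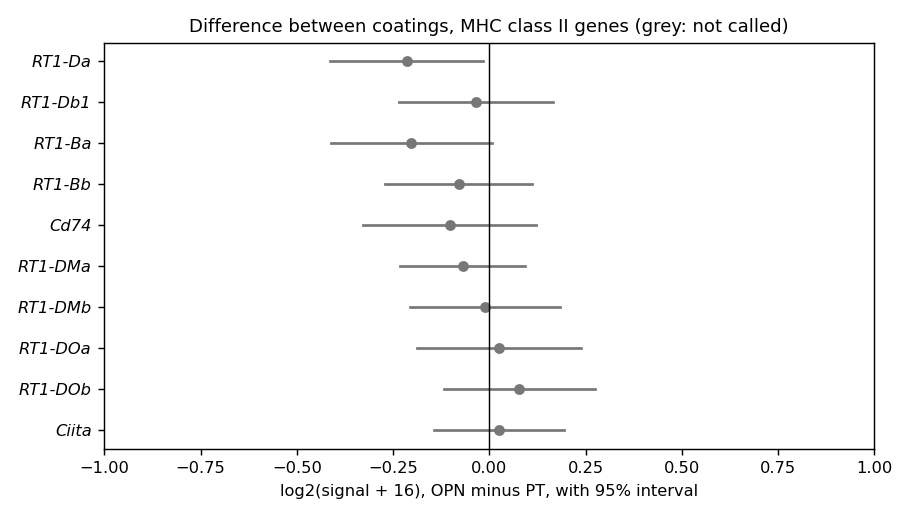
Difference between coatings (OPN minus PT, log2(signal + 16)) of the 10 class II genes with 95% intervals from limma's fit; grey marks genes that were not called. The intervals lie between -0.41 and 0.27, and all except that of RT1-Da include 0.

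The genes around the class II set were read from 5 lists. These were regulators of class II promoters, proteases and endosomal genes, turnover and costimulation, class I presentation and the response to interferon-gamma. Of the 82 genes named in them, 10 rose and 5 fell, which is 18.3%, beside 8.73% of the 14506 named genes. Of those 14506, 1105 rose and 162 fell. At or above the median row in brightness lay 20 of 21 regulators and 15 of 16 proteases and endosomal genes. In class I presentation it was 22 of 24, in turnover and costimulation 7 of 11 and in the interferon-gamma response 6 of 13. Outside the class II set, 8071 of the 14506 named genes lay there. What brightness adds to the share called was not tested. The proteases and endosomal genes held 5 of the 10 that rose and 3 of the 5 that fell. The median difference of the 82 genes was 0.02, beside 0.04 over the named genes.

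Among regulators, 2 of 21 measured genes rose and 0 fell, against 5.05% and 0.77% of all rows. Irf1, the interferon-inducible factor that acts on a Ciita promoter, had 196, 255 and 275 units on PT and 576, 576 and 523 on OPN. It was 2.24-fold higher on OPN (log2 difference 1.17, SE 0.12, adjusted p = 0.000491), while Ciita itself differed by 0.03. Prdm1, which encodes a repressor of Ciita in plasma cells, had 205 ± 0.99 units on OPN against 167 ± 4.28 on PT (SD, n = 3), 1.21-fold higher (adjusted p = 0.0404). That call was lost with equal array medians (adjusted p = 0.0930), with quantile normalisation (0.0646) and without any 1 of the 6 arrays (0.0773 to 0.154). The subunit genes of the X and Y box complexes were not called. Rfx5 had a log2 difference of -0.04 (SE 0.07), Rfxank 0.04 (SE 0.08) and Rfxap 0.01 (SE 0.08), and Nfya, Nfyb and Nfyc had -0.02, -0.10 and 0.02. Ifngr2 (0.26, SE 0.07) and Jak1 (0.25, SE 0.07), a receptor chain and a kinase of interferon-gamma signalling, did not pass (adjusted p = 0.0859 and 0.103). Among rows at or above the median row both were called higher (0.0224 and 0.0295), as they were with an intensity trend (0.0270 and 0.0291), and Ifngr2 also with an offset of 64 (0.0490). Irf8, a factor of macrophages and dendritic cells, lay at -0.22 (SE 0.07) without a call, and was called lower under either scaling, equal array medians (adjusted p = 0.0445) or quantile normalisation (0.0310), and among rows at or above the median row (0.0402). The acetyltransferase gene Kat2b (-0.25) was called lower under those 3 alternatives too and with an intensity trend, at adjusted p between 0.0275 and 0.0448.

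The list of proteases and endosomal genes split in direction: 5 of 16 rose, 3 fell and 8 were not called. Some of these genes have other roles, and whether their differences bear on class II loading was not tested. Over all rows 5.05% rose and 0.77% fell. Cst3, the cysteine protease inhibitor cystatin C, had 642, 676 and 760 units on PT and 2319, 2734 and 2293 on OPN, a 3.48-fold difference (log2 1.80, SE 0.10, adjusted p = 1.04e-05). Ctsh was 1.63-fold and Ctsl 1.47-fold higher (adjusted p = 0.00306 and 0.00163), both cysteine cathepsins, the second of which degrades the invariant chain in thymic epithelium. In the other direction, Ctss, the cathepsin that performs this step in marrow-derived antigen-presenting cells, had 789, 793 and 801 units on PT and 573, 628 and 605 on OPN. Its groups were far apart relative to their spread, and it was 1.31-fold lower on OPN (log2 -0.39, SE 0.07, adjusted p = 0.0100), although without OPN replicate 2 its adjusted p was 0.0612. Lgmn, the asparaginyl endopeptidase that starts the trimming of the invariant chain, had 2985, 3019 and 3005 units on PT and 2069, 2200 and 2085 on OPN, 1.42-fold lower (log2 -0.50, SE 0.07, adjusted p = 0.00216).

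The remaining calls of that list were less stable. Ctsc, the dipeptidyl peptidase that activates granule proteases, fell by 0.32 on the log2 scale (adjusted p = 0.0372), a call lost without any 1 array (adjusted p between 0.0681 and 0.164). Lamp2, a lysosomal membrane glycoprotein gene, rose by 0.31 (adjusted p = 0.0310) and lost its call without any 1 array (0.0651 to 0.110), with equal array medians (0.121) and with quantile normalisation (0.0542). Ctsz, a carboxypeptidase gene, rose by 0.33 (adjusted p = 0.0405), which held only without OPN replicate 4 when 1 array was left out, was 0.0676 to 0.170 without any of the other five, and was lost with equal array medians (0.0994) and with an offset of 1 (0.0558). Ifi30, the thiol reductase that unfolds antigens, was almost equal at 994 ± 20.1 units on OPN against 991 ± 49.3 on PT (SD, n = 3 each). Its log2 difference had a 95% interval of -0.15 to 0.16.

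In the list of turnover and costimulation, 2 of 11 measured genes fell and 0 rose, against 0.77% and 5.05% of all rows. Cd86, a costimulatory ligand that engages CD28 on T cells, had 523, 568 and 535 units on PT and 340, 365 and 332 on OPN. The groups were well separated, 1.54-fold lower on OPN (log2 -0.63, SE 0.07, adjusted p = 0.00109). Cd83, which opposes the ubiquitination of class II molecules by Marchf1, had 452, 605 and 547 units on PT and 352, 363 and 376 on OPN. It was 1.44-fold lower (adjusted p = 0.0206), a call lost without any 1 array except PT replicate 1 (adjusted p between 0.0552 and 0.0826). The ligase genes that send class II molecules to lysosomes did not pass: Marchf1 had a log2 difference of -0.09 (SE 0.09) and Marchf8 -0.27 (SE 0.08, adjusted p = 0.118). For Marchf8 the adjusted p was 0.0197 after quantile normalisation, 0.0332 among rows at or above the median row and 0.0361 with an intensity trend, which are calls. Lag3, which encodes a class II receptor of T cells, was dim and lay at 0.31 (SE 0.08) without a call.

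Class I molecules present peptides from inside the cell. Against 5.05% of all rows higher and 0.77% lower, 2 of 24 measured genes of that route rose while 0 fell. Both encode chaperones that serve protein folding in the endoplasmic reticulum at large. Pdia3 had 3710 ± 111 units on OPN against 2847 ± 103 on PT (SD, n = 3), 1.30-fold higher (adjusted p = 0.0118, and 0.0688 without OPN replicate 3). Calr was 1.25-fold higher (adjusted p = 0.0437), and without any 1 array except PT replicate 4 its adjusted p lay between 0.0904 and 0.177, with equal array medians at 0.111 and with an offset of 1 at 0.0605. Erap1 (0.24, SE 0.08) and RT1-CE16 (0.18, SE 0.07), which encode a peptide-trimming enzyme and a class I chain, lay above 0 without a call, except that Erap1 was called among rows at or above the median row (adjusted p = 0.0474). In the GRCr8 gene order Tap2, Psmb8, Tap1 and Psmb9, which encode the class I peptide transporter and immunoproteasome subunits, stand between RT1-DOb and RT1-DMb. Like the class II genes on either side they were not called, with log2 differences of 0.03, 0.10, -0.11 and -0.004.

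Of 13 measured genes of the interferon-gamma response, 2 rose and 0 fell, against 5.05% and 0.77% of all rows. Irf1, 1 of the 2, is also in the list of regulators. The chemokine gene Cxcl10 had 166, 185 and 215 units on PT and 305, 291 and 286 on OPN, 1.52-fold higher (log2 0.60, SE 0.09, adjusted p = 0.00570). Socs1, a feedback inhibitor gene, had a log2 difference of 0.27 (SE 0.08) and the GTPase gene Ifi47 -0.18 (SE 0.07), both without a call (adjusted p = 0.117 and 0.241). Gbp2 (-0.07), Gbp5 (0.07) and Cxcl9 (0.03) were not called either.

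**Figure D4:**
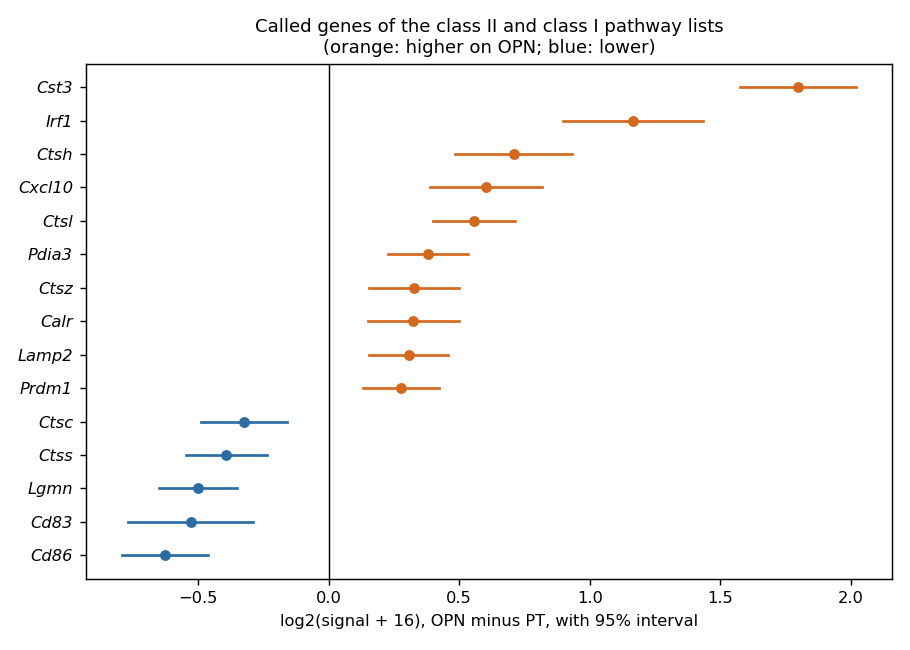
The 15 called genes of the 5 lists around the class II set, with the difference OPN minus PT on the log2(signal + 16) scale and its 95% interval. Cst3 and Irf1 lie farthest to the right, and Cd86, Cd83, Lgmn, Ctss and Ctsc lie below 0.

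Of the cells that bear class II, macrophages had 11 of 16 measured markers called lower on OPN, dendritic cells 1 of 12 and B cells 0 of 14. The share over all rows was 0.77%, and no test compared these lists. The 16 measured macrophage markers had a median log2 difference of -0.45 and a summed signal of 11329 to 12132 on OPN and 15799 to 16558 on PT. Mrc1 (-0.79), Cd163 (-0.87) and C1qa (-0.75), genes of a mannose receptor, a haemoglobin scavenger receptor and a complement component, had the smallest p among the 11 that fell. Without 1 array this count was 9 to 11, and Cd68 (0.18), Csf1r (0.12) and Vsig4 (0.14) lay above 0. The class II median, -0.05 as reported above, stayed closer to 0 than the macrophage median under each of the 13 alternatives. These alternatives reuse the same arrays and are no separate evidence. At or above the median row lay 6 of the 10 class II genes and 14 of the 16 macrophage markers. Background in a dim row pulls its difference toward 0, and its part in the gap between these medians was not tested. Of 12 dendritic cell markers 1 fell, Cd83, and the list's median was -0.02. Cd83 is also in the list of turnover and costimulation, and its call was lost without any 1 array except PT replicate 1. The growth factor receptor Flt3 (-0.02) and Xcr1 (-0.03) did not pass, nor did Clec10a (-0.24, adjusted p = 0.139) or Ccl22 (-0.12). Quantile normalisation brought Clec10a to a call (adjusted p = 0.0489). Of 14 B cell markers 0 were called, with a median of 0.03. At an unadjusted p under 0.05 in limma there were 3, against 17.7% of all rows: Ebf1 (0.33), Cd22 (-0.20) and Fcer2 (-0.17). Ebf1 (adjusted p = 0.0617) was called higher with an offset of 64 (0.0262), among rows at or above the median row (0.0120), with an intensity trend (0.0134) and without PT replicate 4 (0.0318). Summed signals were 2698 to 2860 on OPN and 2932 to 3055 on PT for the dendritic cell markers, and 5084 to 5367 and 4702 to 5527 for the B cell markers. Without Cd83 the dendritic cell sums overlapped, at 2322 to 2508 on OPN and 2327 to 2602 on PT. No marker of these lists was listed at 0, and which lie above background is not known. The part of any of these cells in the class II signal was not tested.

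**Figure D5:**
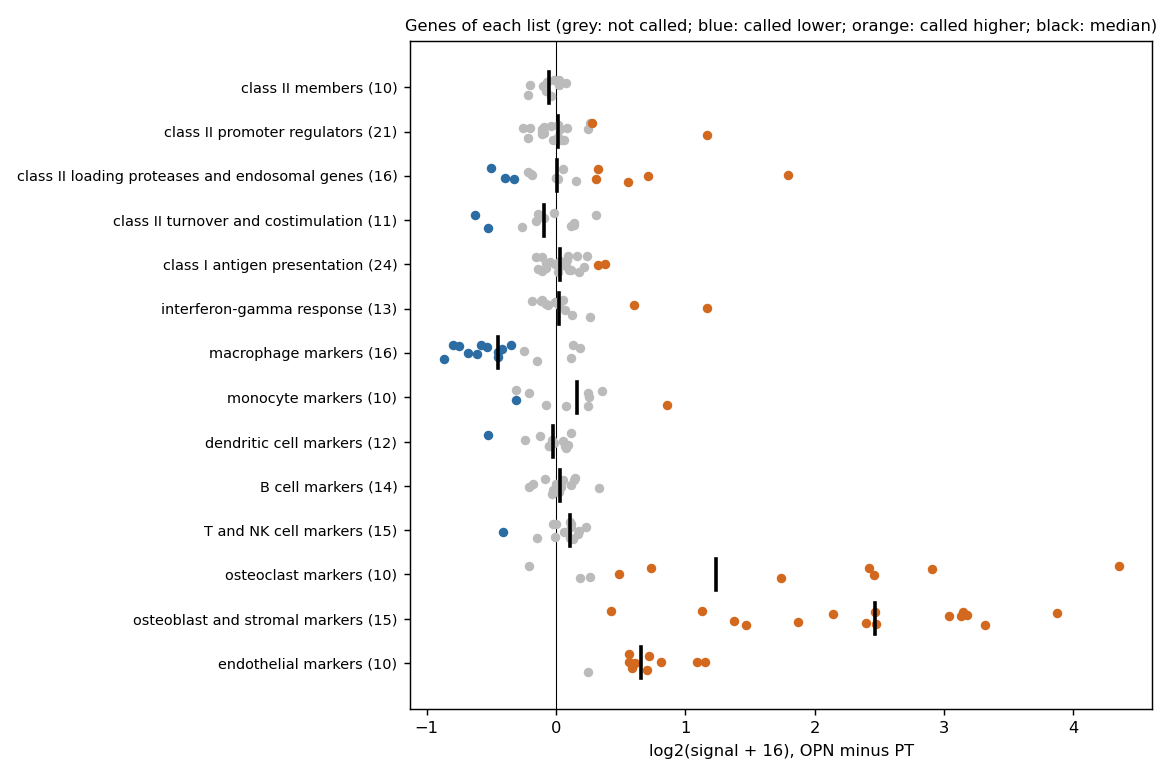
Difference between coatings (log2(signal + 16), OPN minus PT) of every measured gene of 14 lists, with the number of genes in brackets and the list median as a black bar. The class II points lie within -0.21 to 0.08, the macrophage markers around -0.45 and the osteoblast and stromal markers around 2.46.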

How the data were processed

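The authors deposited 1 linear intensity per probe set and array. The submitters' processing notes name Affymetrix Expression Console and PLIER, which summarises the probes of a set. Tool versions, background correction, between-array scaling and build: not given in the sources used here. Per the labels' protocols, 300 ng of total RNA was labelled. Rows were named through the platform annotation, in which 15310 rows have 1 symbol, 323 several and 13582 none; all 10 class II symbols matched the GRCr8 gene table by Entrez identifier, with 0 changed. For genes with several rows the brightest was used.

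Values were transformed as log2(signal + 16), which understates the change of dim rows. All fold differences come from this scale and are not ratios of the units printed. All 29215 rows were fitted with lmFit and eBayes (limma 3.58.1, R 4.3.3), with the coating as the only term and Benjamini-Hochberg adjustment over all rows; an adjusted p below 0.05 is a call, and rose and fell are used of calls. The fit was checked on simulated data with planted changes larger than any class II difference measured here. That check does not tell how often changes of the class II size would be called. Precision is limited by the number of arrays.

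The class II genes and the lists were chosen with earlier results of these data known. Text names every class II gene, every called gene of the pathway lists with up to 4 of smallest p, and 3 of smallest p per cell marker list shown; Rfx, Nfy, Irf8, Kat2b, Marchf1, Ifi30, Tap, immunoproteasome, Gbp, Cxcl9, Flt3, Xcr1 and positive macrophage genes were added after their values were seen. Some listed genes were not analysed here.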

Additional observations from a re-analysis of the deposited data

How the results depend on the processing

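The class II count stayed at 0 called genes under all 13 alternatives, with a lowest adjusted p of 0.0940. Over 126 combinations of a class II gene and an alternative, 111 kept their direction and 15 turned, all of genes close to 0. RT1-DOa and Ciita turned to -0.040 and -0.039 with equal array medians, and to -0.038 and -0.032 with quantile normalisation. Leaving out 1 array gave RT1-Db1 -0.109 to 0.014, RT1-DMb -0.079 to 0.039, RT1-DOa -0.035 to 0.124 and Ciita -0.018 to 0.073. Rows called lower on OPN, 225 as reported, numbered 382 with an offset of 64, 551 with equal array medians, 745 with quantile normalisation, 553 among rows at or above the median row and 508 with an intensity trend; the cause was not tested. Leaving out 1 array gave 928 to 1357 rows higher, 95 to 181 lower and 8 to 10 pathway genes, from fewer samples. PT and OPN arrays share the replicate numbers 2 and 4, and no label says that a number marks a shared preparation. Deviations from the group means correlated at -0.08 for number 2 and 0.07 for number 4. Between PT replicate 1 and OPN replicate 2, which share no number, the value was 0.18. With 3 arrays per group these values cannot decide whether arrays of 1 number share a preparation. The replicate number was also used as a block, which leaves 1 residual degree of freedom. PT replicate 1 and OPN replicate 3 are then alone in their blocks, so the differences rest on replicates 2 and 4 only. In that fit 618 rows were higher and 48 lower, and 4 pathway genes were called (Irf1, Cst3, Cd86 and Cd83). RT1-DMb turned to 0.035, and 7 of the 11 called macrophage markers remained. The filter on dim rows gave no value for RT1-Ba, RT1-Db1, RT1-DOb and Ciita. Averaging a gene's rows was not run, since each class II gene has 1 row. Signal over background was not known.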

Other observations

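Cd4, whose product binds class II molecules on helper T cells and is also carried by rat macrophages, fell on OPN. It was the 1 call among 15 measured T and NK cell markers, against 5.82% of all rows called. It had 614 ± 23.6 units on OPN against 818 ± 21.1 on PT (SD, n = 3 each), a log2 difference of -0.41 (SE 0.07, adjusted p = 0.00822 in limma). The other 14 were not called, with Prf1 (0.18) and Lck (0.23) next in order of p, and the list's median was 0.11. Of 10 monocyte markers, the transglutaminase subunit gene F13a1 (0.86) rose and Ly86 (-0.31), a partner of a Toll-like receptor homologue, fell. Over all rows 5.05% rose and 0.77% fell. The call of Ly86 was lost when any 1 array other than PT replicate 1 was left out (adjusted p 0.108 to 0.147). Fcgr3a (-0.31) did not pass. In this list 2 markers were called lower among rows at or above the median row, with an intensity trend and without PT replicate 1. Those called higher were 2 among rows at or above the median row and without PT replicate 4.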
